A study of Mus musculus with 6 samples.

Results

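The genes described here encode the MLL3/4 complex, the histone methyltransferase complex to which PA1, the protein deleted in this study, belongs. They were taken by name: Kmt2c, Kmt2d, Kdm6a, Ncoa6, Paxip1, Pagr1a, Wdr5, Rbbp5, Ash2l and Dpy30. Of these 10 names, 9 were analysed out of 28262 listed genes, and all 9 were among the 14919 genes that passed the filter on low counts and were tested. Pagr1a, the current symbol of Pa1, was not analysed here, and each library's genotype is therefore as labelled and unchecked.

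RNA-seq was made from Sertoli cells, the somatic cells that nurse germ cells inside the seminiferous tubules, purified from 20-day-old C57BL/6 mice. Controls were Pa1F/F cells (labelled PA1flox/flox), in which both Pa1 alleles are flanked by loxP sites, with 3 libraries. Knockouts were Amh-pa1-/- cells (labelled PA1-/-), with 3 libraries, in which the same alleles are deleted by a Cre recombinase under the Amh promoter, active in Sertoli cells. Cells of both genotypes were untreated and were cultured at 34 °C with 5% CO2. The study calls the replicates biological, but neither it nor the labels say which animals or cultures each came from, and p-values measure only the spread between these libraries.

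MLL3 (Kmt2c) and MLL4 (Kmt2d) are large, related methyltransferases that place most of the monomethyl mark on lysine 4 of histone H3 at enhancers. Both work with WDR5, RBBP5, ASH2L and DPY30, a core module that every COMPASS-type methyltransferase complex of mammals shares. The adaptors NCOA6, PTIP (Paxip1) and PA1 and the H3K27 demethylase UTX (Kdm6a) are the subunits particular to MLL3/4 complexes, where PA1 binds PTIP directly.

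The upstream sequences of Kmt2c, Kmt2d and Rbbp5 are shown as examples: Kmt2c and Kmt2d encode the 2 catalytic subunits, and Rbbp5 is the called member of the shared core. Each run is the 250 bases before the RefSeq transcription start on GRCm38.p6, written 5′ to 3′ on the gene's own strand, and capitals mark the GC box letters GGGCGG or CCGCCC.
Kmt2c, chr5:25498784-25499033, minus strand: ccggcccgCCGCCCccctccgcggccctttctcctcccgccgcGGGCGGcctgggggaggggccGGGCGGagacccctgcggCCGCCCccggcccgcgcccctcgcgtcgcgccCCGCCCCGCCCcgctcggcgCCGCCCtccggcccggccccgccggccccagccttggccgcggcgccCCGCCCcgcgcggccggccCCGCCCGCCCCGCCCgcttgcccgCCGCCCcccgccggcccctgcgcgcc
Kmt2d, chr15:98871206-98871455, minus strand: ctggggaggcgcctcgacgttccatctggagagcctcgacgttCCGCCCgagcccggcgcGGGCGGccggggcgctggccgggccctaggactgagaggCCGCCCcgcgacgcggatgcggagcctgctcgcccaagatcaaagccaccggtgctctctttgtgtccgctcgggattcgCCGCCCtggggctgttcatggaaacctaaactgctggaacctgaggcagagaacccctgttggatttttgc
Rbbp5, chr1:132477117-132477366, plus strand: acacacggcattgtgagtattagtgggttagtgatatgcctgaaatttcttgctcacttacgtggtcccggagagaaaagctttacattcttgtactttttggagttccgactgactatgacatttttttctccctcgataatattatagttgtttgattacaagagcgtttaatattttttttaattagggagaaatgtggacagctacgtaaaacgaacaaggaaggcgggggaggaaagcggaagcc

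The Kmt2c window held 91.6% G and C, 48 CpG dinucleotides and 12 GC boxes, counting overlapping matches on both strands. Its CpG count was above that of 99.8% of 32851 RefSeq promoters of the same length, whose median was 6. The Kmt2d window held 67.6% G and C, 26 CpG dinucleotides and 4 GC boxes. The Rbbp5 window was much poorer, with 40.0% G and C, 10 CpG dinucleotides and no GC box. The window of Paxip1 lay largely inside the listed gene, so its letters are not shown, while that of Rbbp5 entered its gene by its last 2 bases. The Paxip1 window held 63.6% G and C, 22 CpG dinucleotides and 2 GC boxes. Among the others, G and C made up 59.6% of the Kdm6a window, 54.4% of that of Wdr5, 38.4% of that of Ncoa6 and 40.0% to 71.6% of those of the 4 listed starts of Dpy30. The Ncoa6 window and those of the last 3 Dpy30 starts lay wholly inside the listed genes. Base composition was not compared with the fold changes. A GC box was present in 32.7% of all promoters of this length. The AP-1 letters TGACTCA or TGAGTCA occurred in none of the windows of the 8 members with an entry and in 4.46% of all promoters, and the CRE letters TGACGTCA likewise in none of them and in 1.55% of all promoters. These matches describe letters in a window and no binding was measured.

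Total counts on genes were 14051353 to 16231443 in Pa1F/F libraries and 13203757 to 15247587 in Amh-pa1-/- libraries. The members held 300 to 3887 counts in a library, and counting error alone came to 5.77% at the lowest of these, in Dpy30. Values below are normalized counts, that is counts scaled with TMM factors to the mean depth of the 6 libraries. Replicates were unevenly spaced: the SD of the log2 difference over genes was 0.248 between Pa1F/F 1 and 3 and 0.245 between Amh-pa1-/- 1 and 2, against 0.46 to 0.518 for the pairs with Pa1F/F 2 or Amh-pa1-/- 3. No pair agreed within sampling noise, and all 6 libraries were kept as separate. The close pairs were also summed, which leaves 2 libraries per genotype, and the result is given where it ends a call.

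The Sertoli cell label was checked against 12 marker genes, whose summed level was 15900 to 16100 CPM (counts scaled to a fixed depth) in Pa1F/F and 9460 to 12300 CPM in Amh-pa1-/- libraries. Most of that sum, and of its fall, was Clu, with 192500 to 194100 normalized counts in controls and 105700 to 146300 in knockouts, while Sox9, Wt1, Dhh and Fshr overlapped between genotypes (log2 fold changes of -0.12 to 0.13). Gata4, Clu and Sox8 were lower in Amh-pa1-/- cells among the 10 tested, while Rhox5 and Trf stood at 2 to 16 and 2 to 6 counts in every library. Sums of some markers of other testis cells also differed between genotypes. The counts of tested markers given here are at an adjusted p under 0.05, beside 17.1% of all tested genes lower and 18.2% higher. The called shares of Sertoli and myoid markers, 30.0% and 20.0%, were below the 35.3% of all tested genes. The summed level of 7 Leydig cell markers was 838 to 933 CPM in controls and 177 to 333 CPM in knockouts (3 of 4 tested lower), with the defining Leydig genes Cyp17a1 and Insl3 at no more than 3 counts in every library. The sum of 7 macrophage markers was 120.0 to 131 CPM against 74.3 to 92.3 CPM (4 of 5 tested lower). Mrc1, which was not called (0.17, adjusted p = 0.254), made up most of that sum, and the log2 fold changes of Adgre1, Cd68, Csf1r and Lyz2 were -3.38 to -1.65. That of 6 peritubular myoid markers was 222 to 283 CPM against 828 to 1270 CPM (1 of 5 tested higher). That rise came mostly from Acta2, an actin gene also expressed in cultured cells of other types. Myh11, Des and Actg2 were below every control in Amh-pa1-/- replicates 1 and 2 and above every control in replicate 3, at 1605, 485 and 730.4 normalized counts there, and Cnn1 reached 421 in that library alone. The sum of 6 endothelial markers was 117 to 123 CPM against 64.2 to 101 CPM (2 of 4 tested lower and 1 higher). The sum of 11 germ cell markers was 8.36 to 11.1 CPM against 9.88 to 13.3 CPM (2 of 5 tested lower and 1 higher), with Zbtb16, Stra8, Prm1 and Acrv1 at no more than 3 counts in every library. The part of these cells in the members' values was not tested, and in bulk RNA fewer cells of a type and less RNA per cell cannot be told apart.

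Within the complex, transcripts moved in both directions. Kmt2c was lower in Amh-pa1-/- Sertoli cells, Paxip1 and Rbbp5 were higher, and no member changed as much as 2-fold in either direction. At an adjusted p under 0.05 (edgeR's quasi-likelihood F-test, Benjamini-Hochberg over all tested genes), 3 of 9 members (33.3%) were called, 1 lower and 2 higher, beside 35.3% of all 14919 tested genes. The members' share was near that of all genes and is not a result about the complex. The plot of fold changes with their intervals shows this order.

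**Figure D1:**
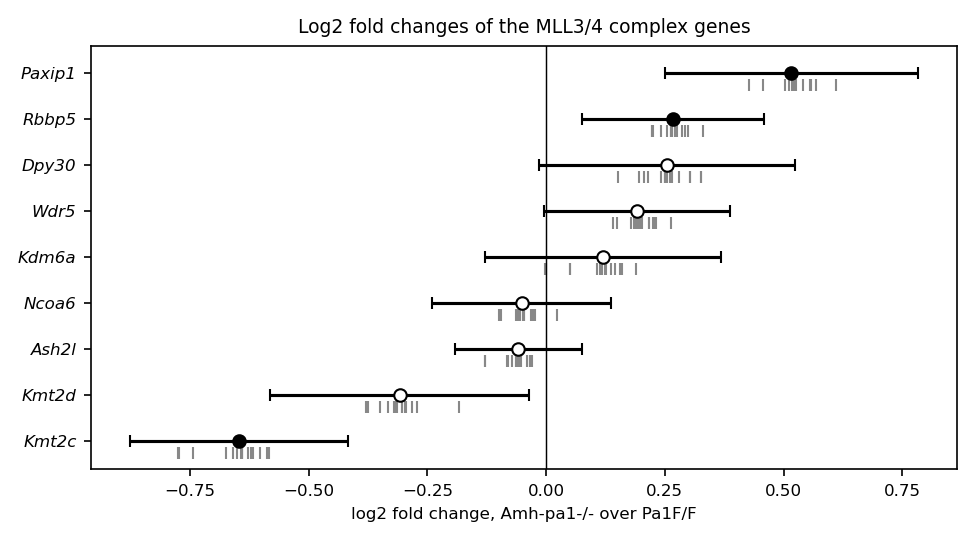
Log2 fold change of each MLL3/4 complex gene in Amh-pa1-/- over Pa1F/F Sertoli cells (x axis), with 95% confidence intervals as bars, filled points for an adjusted p under 0.05 and grey ticks for the 16 alternative settings of the processing. Kmt2c lies lowest at -0.65 and Paxip1 highest at 0.52, and the ticks of each of these 2 genes stay on their side of 0.

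The catalytic subunits are described first. Kmt2c (ENSMUSG00000038056, chromosome 5, 25271798 to 25498783, minus strand) had 2381, 1944 and 2451 normalized counts in Pa1F/F replicates 1 to 3 and 1392, 1530 and 1409 in Amh-pa1-/- replicates 1 to 3. Every knockout library was below every control library, and the lowest control was replicate 2. The mean was 2259 ± 275 (SD, n = 3) in controls and 1444 ± 75.2 (SD, n = 3) in knockouts, a level 0.639 times that of the control. The log2 fold change was -0.65 (SE 0.10, 95% confidence interval -0.88 to -0.42, adjusted p = 0.003185), larger in size than that of 74.9% of tested genes. It was called when any single library was left out, with adjusted p of up to 0.0202, but not with the close pairs summed (adjusted p = 0.0643). The pseudogene Hspe1-ps3 and the transcript model Gm42585 lie on the opposite strand within Kmt2c and held 0 to 6 and 12 to 35 counts, against at least 1358 for Kmt2c.

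Kmt2d (ENSMUSG00000048154, chromosome 15, 98831669 to 98871204, minus strand) encodes MLL4, the other catalytic subunit. It had 3521, 3764 and 3462 normalized counts in Pa1F/F and 3071, 3230 and 2381 in Amh-pa1-/- libraries. The genotypes did not overlap, and Amh-pa1-/- replicate 3 was well below the other two. Mean normalized counts were 3582 ± 160 and 2894 ± 451 (SD, n = 3 each), and the log2 fold change of -0.31 (SE 0.11, interval -0.58 to -0.04) missed the threshold with an adjusted p of 0.0782. Without Amh-pa1-/- replicate 3 the difference shrank to -0.18 with less spread, and passed with an adjusted p of 0.0255. It passed in 2 of 16 alternatives in all.

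Since MLL3 and MLL4 take the same place in the complex, their transcripts were also set against each other within each library, which needs no scaling. The log2 ratio of Kmt2c to Kmt2d counts was -0.56, -0.95 and -0.50 in Pa1F/F libraries and -1.14, -1.08 and -0.76 in Amh-pa1-/- libraries. Kmt2d had more counts in every library, and the genotypes overlapped through Pa1F/F replicate 2 and Amh-pa1-/- replicate 3. The mean was -0.67 ± 0.25 in controls and -0.99 ± 0.21 in knockouts (SD, n = 3), a difference of -0.32 that gave p = 0.2 by exact permutation of the genotype labels, two-sided, where 3 against 3 cannot give less than 0.1. This design cannot pass 0.05, so the test does not decide whether the ratio differs.

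**Figure D2:**
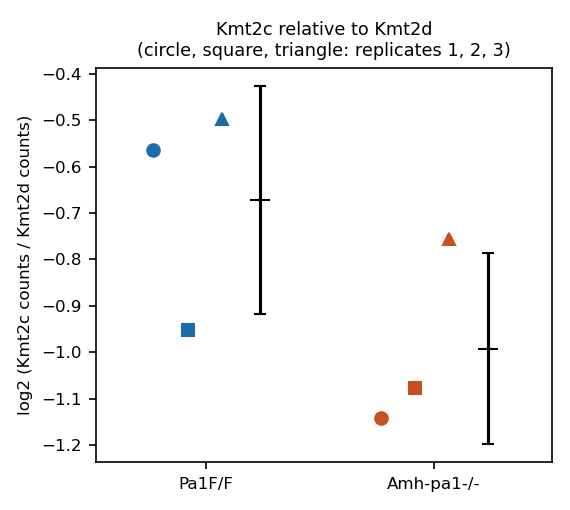
Log2 ratio of Kmt2c to Kmt2d counts in each library (y axis) by genotype (x axis), with circle, square and triangle for replicates 1, 2 and 3 and black bars for mean and SD. Amh-pa1-/- replicate 3 at -0.76 lies among the Pa1F/F libraries, which run from -0.95 to -0.50.

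Kdm6a (ENSMUSG00000037369, chromosome X, 18162575 to 18279936, plus strand), which encodes the demethylase UTX, had 636, 550.0 and 641 normalized counts in Pa1F/F and 599, 738 and 648 in Amh-pa1-/- libraries. The groups overlapped. A log2 fold change of 0.12 (interval -0.13 to 0.37, adjusted p = 0.411) left room for a knockout level between 0.914 and 1.29 times that of the control.

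Among the adaptors, Paxip1 was the member that rose most. Paxip1 (ENSMUSG00000002221, chromosome 5, 27740080 to 27791691, minus strand) encodes PTIP, a protein with BRCT domains that also acts in the DNA damage response. It had 483, 558 and 628 normalized counts in Pa1F/F and 754, 769 and 863 in Amh-pa1-/- libraries. Every knockout library was above every control library. The mean rose from 556 ± 72.6 to 795 ± 59.0 (SD, n = 3 each), which is 1.43 times the control level with an interval of 1.19 to 1.72. The log2 fold change was 0.52 (SE 0.11, adjusted p = 0.01264), and it was called without any single library (adjusted p of up to 0.0391) but not with the close pairs summed (adjusted p = 0.0511).

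Ncoa6 (ENSMUSG00000038369, chromosome 2, 155390656 to 155473894, minus strand), a nuclear receptor coactivator, had 2612, 2376 and 2597 normalized counts in Pa1F/F and 2608, 2520.0 and 2191 in Amh-pa1-/- libraries. The groups overlapped, and Amh-pa1-/- replicate 3 was below every control. Its log2 fold change was -0.05 (adjusted p = 0.650), and the interval ran from 0.847 to 1.10 times the control level. The pseudogene Gm14239 on the same strand within Ncoa6 held 2 to 6 counts.

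Of the shared core module, Rbbp5 passed the test, Wdr5 and Dpy30 were higher in every Amh-pa1-/- library without passing it, and Ash2l overlapped. Rbbp5 (ENSMUSG00000026439, chromosome 1, 132477365 to 132505659, plus strand), a scaffold between the enzyme and the core, had 597, 632 and 583 normalized counts in Pa1F/F and 666, 745 and 771 in Amh-pa1-/- libraries. The highest control and the lowest knockout library were close but did not overlap. The mean rose from 604 ± 25.3 to 727 ± 54.6 (SD, n = 3 each), with a log2 fold change of 0.27 (SE 0.08, interval 0.08 to 0.46, adjusted p = 0.0408). This call was fragile: it held in 5 of 16 alternative settings, and was lost without any one Pa1F/F library and without Amh-pa1-/- replicate 2 or 3 (adjusted p of 0.0511 to 0.129).

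Wdr5 (ENSMUSG00000026917, chromosome 2, 27515157 to 27536535, plus strand), a WD40 protein that holds the core together, had 693, 721 and 647 normalized counts in Pa1F/F and 791, 722 and 841 in Amh-pa1-/- libraries. Pa1F/F replicate 2 and Amh-pa1-/- replicate 2 were nearly equal. Its log2 fold change was 0.19 with an interval of -0.0047 to 0.39 (adjusted p = 0.115).

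Dpy30 (ENSMUSG00000024067, chromosome 17, 74299474 to 74323944, minus strand), the smallest core subunit, had 289, 306 and 328 normalized counts in Pa1F/F and 345, 338 and 419 in Amh-pa1-/- libraries. The highest value, in Amh-pa1-/- replicate 3, stood apart from the rest. Its log2 fold change was 0.26 (interval -0.02 to 0.53, adjusted p = 0.125), and 0.15 without that library.

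Ash2l (ENSMUSG00000031575, chromosome 8, 25815996 to 25847694, minus strand), which stimulates the methyltransferase together with RBBP5, had the smallest spread between replicates of the 9 members in each genotype. It had 1251, 1225 and 1316 normalized counts in Pa1F/F and 1257, 1196 and 1187 in Amh-pa1-/- libraries, and the groups overlapped. With a log2 fold change of -0.06 (adjusted p = 0.455), its interval ran from 0.875 to 1.05 times the control level.

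**Figure D3:**
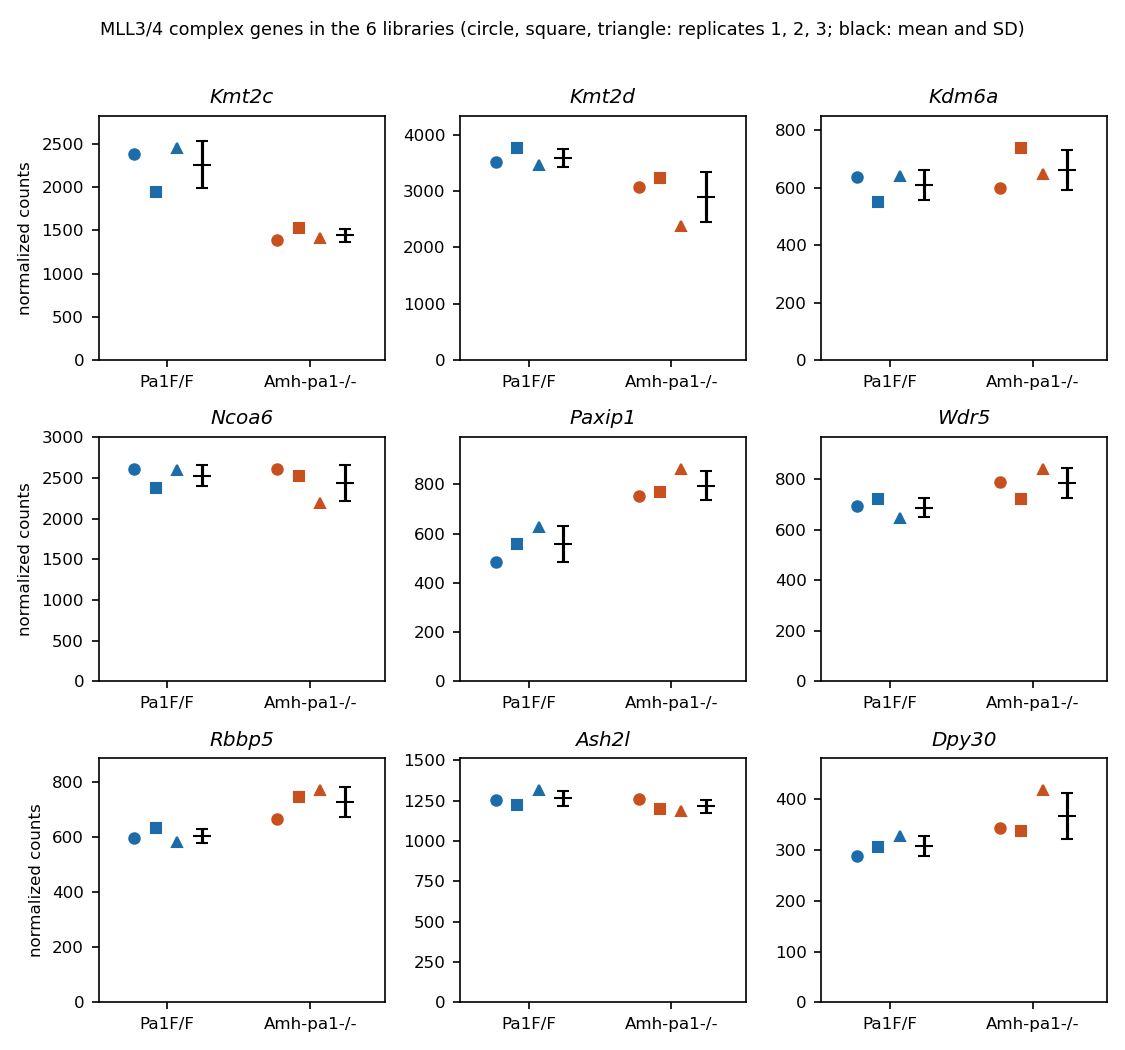
Normalized counts (y axes, from 0) of the 9 genes in the 3 Pa1F/F (blue) and 3 Amh-pa1-/- (orange) libraries, with circle, square and triangle for replicates 1, 2 and 3 and black bars for mean and SD. Kmt2c falls from 2259 to 1444 and Paxip1 rises from 556 to 795, while Ash2l keeps nearly the same mean, 1264 and 1214.

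Over the complex, the genotypes did not overlap for 6 of 9 members (66.7%), 2 lower and 4 higher in Amh-pa1-/- cells, beside 52.4% of all tested genes (26.1% lower and 26.3% higher). At an unadjusted p under 0.05 there were 4 members, beside 46.0% of all tested genes. No member passed the adjusted p together with an absolute log2 fold change of 1, beside 12.0% of all tested genes (6.56% lower and 5.44% higher). The members' median log2 fold change was 0.12, with a median over all tested genes of 0.00. The 4 members of the shared core had log2 fold changes from -0.06 to 0.27. Those of the enzymes and the subunits particular to MLL3/4 spread from -0.65 to 0.52. The spread between replicates, as a coefficient of variation, ran from 3.13% for Ash2l to 15.6% for Kmt2d, both in Amh-pa1-/- libraries.

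Levels were compared between genes as CPM per kilobase of the canonical transcript. In Pa1F/F cells Dpy30 had the highest level, 28.5 ± 1.82 CPM per kilobase, followed by Ncoa6 with 23.9 ± 1.25 and Wdr5 with 16.1 ± 0.876 (SD, n = 3). Ash2l (12.7 ± 0.472) and Kmt2d (12.3 ± 0.548) did not differ beyond their spread, and Rbbp5 came next at 11.3 ± 0.471. Kmt2c stood at 9.12 ± 1.11 CPM per kilobase, and the lowest levels, which overlapped, were those of Paxip1 (6.34 ± 0.827) and Kdm6a (6.26 ± 0.526).

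In Amh-pa1-/- cells Dpy30, Ncoa6 and Wdr5 kept the first places, with 34.0 ± 4.16, 23.0 ± 2.07 and 18.3 ± 1.39 CPM per kilobase. Rbbp5 (13.5 ± 1.02) and Ash2l (12.2 ± 0.382) overlapped. Below them, Kmt2d (9.93 ± 1.55) overlapped Paxip1 (9.06 ± 0.672), and Kdm6a (6.80 ± 0.722) overlapped Kmt2c (5.83 ± 0.304). Kmt2c was thus above Paxip1 in every Pa1F/F library and below it in every Amh-pa1-/- library. The order depends on the length used. Per kilobase of coding sequence, Dpy30 stayed first in controls (70.5) but Ash2l (53.4) and Wdr5 (46.6) came before Ncoa6 (27.7), and Kmt2c (10.4) came just below Paxip1 (11.9).

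**Figure D4:**
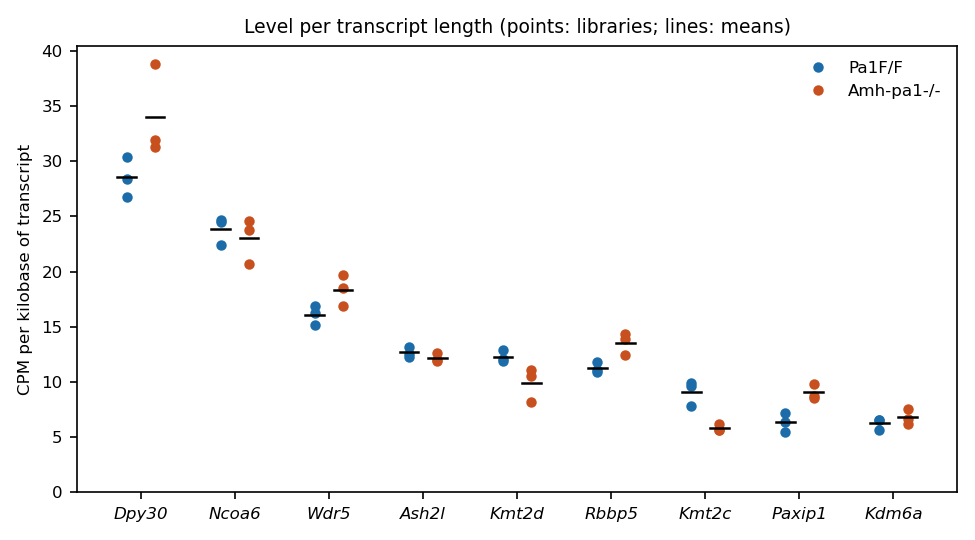
Level of each gene in CPM per kilobase of canonical transcript (y axis, from 0), with points for the 3 Pa1F/F (blue) and 3 Amh-pa1-/- (orange) libraries and lines for their means. Genes are ordered by their Pa1F/F mean, from Dpy30 at 28.5 to Kdm6a at 6.26, and Kmt2c and Paxip1 exchange places between the genotypes.

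The genes whose pattern over the 6 libraries was most like that of a member were found among 11055 genes with a mean of at least 5 CPM, by the root-mean-square difference of log2 CPM after each gene was centred on its own mean. For Kmt2c these were Atp2b4, a calcium pump of the plasma membrane (0.04), the cytokine gene Clcf1 (0.04) and the hypoxia-inducible factor gene Epas1 (0.05). For Kmt2d they were Atpaf1 (0.02), an assembly factor of the mitochondrial ATP synthase, the lipid peroxidase gene Gpx4 (0.03) and the homeobox gene Zfhx4 (0.03). Gpx4 had 3872, 4099 and 3756 normalized counts in Pa1F/F and 3488, 3417 and 2654 in Amh-pa1-/- libraries, with the same low replicate 3 as Kmt2d. For Paxip1 they were Lyrm1 (0.05), the zinc finger gene Zfp946 (0.05) and the kinase gene Pim2 (0.06). With 6 libraries such likeness is a description only.

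The surrounding chromatin genes were set beside the complex in 6 lists. Of 61 tested genes, 16 were lower and 8 higher in Amh-pa1-/- cells at an adjusted p under 0.05, beside 17.1% of all tested genes lower and 18.2% higher. With the close pairs summed, Cebpb, Ezh2 and Mdc1 were the only ones still called.

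The other COMPASS complexes, which use the same core with other enzymes, had 4 of 14 tested genes called (28.6%) and a median log2 fold change of 0.01. Both SET1 enzymes were lower: Setd1b went from 741 ± 37.3 to 548 ± 43.7 normalized counts (log2 fold change -0.44, adjusted p = 0.008177) and Setd1a from 595 ± 12.9 to 453 ± 39.9 (-0.39, adjusted p = 0.01222). The Setd1a call was lost without Amh-pa1-/- replicate 1 (adjusted p = 0.0512). Psip1, whose product tethers the menin complexes to chromatin, was higher with 1282 ± 41.9 against 989 ± 51.0 (0.37, adjusted p = 0.004722). Bod1 was also higher, with 626 ± 35.6 against 483 ± 23.3 (0.37, adjusted p = 0.01086).

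Among 8 genes of H3K4 demethylases and their corepressors, 4 were lower, none was higher, and the median log2 fold change was -0.22. Rcor1, the partner of LSD1, went from 1288 ± 87.3 to 919 ± 64.9 normalized counts (-0.49, adjusted p = 0.004552). The demethylase genes Kdm5b (-0.38, adjusted p = 0.008899), Kdm5d (-0.30, adjusted p = 0.01145) and Kdm5a (-0.27, adjusted p = 0.0288) were lower by less. The Kdm5a call was lost without any single library other than Amh-pa1-/- replicate 3 (adjusted p of up to 0.1), and that of Kdm5d without Amh-pa1-/- replicate 2 (adjusted p = 0.0561).

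Of 14 genes for writers and erasers of H3K27 marks, 4 were lower and 2 higher (42.9% called, median -0.19). Ezh2, the methyltransferase of the Polycomb repressive complex PRC2, rose from 436 ± 26.4 to 849 ± 110.0 normalized counts (0.96, adjusted p = 0.001214), and its partner Suz12 from 1059 ± 65.6 to 1348 ± 57.6 (0.35, adjusted p = 0.008442). Rbbp7, a histone chaperone of the same complex among others, fell (-0.35, adjusted p = 0.009014). The acetyltransferase genes Ep300 (-0.32, adjusted p = 0.0134) and Crebbp (-0.27, adjusted p = 0.0364) fell, as did Uty, the Y-linked relative of Kdm6a (-0.29, adjusted p = 0.0410). The calls of Crebbp and Uty were each lost without several single libraries (adjusted p of up to 0.119 and 0.130), and that of Ep300 without Pa1F/F replicate 3 (adjusted p = 0.0547).

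Partners of PTIP in the DNA damage response included 2 genes that rose among 8 tested (25.0% called, median 0.06). Mdc1 rose from 740 ± 31.8 to 1133 ± 106 normalized counts (0.61, adjusted p = 0.002263) and the ubiquitin ligase gene Rnf168 from 582 ± 41.4 to 771 ± 81.5 (0.41, adjusted p = 0.0197). The Rnf168 call was lost without Pa1F/F replicate 2 or 3 (adjusted p of 0.0551 and 0.0724).

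Nuclear receptors and their coactivators had 5 of 12 tested genes lower and none higher (41.7% called, median -0.27). Without Amh-pa1-/- replicate 3 the list had 9 lower and 1 higher, and 1 was also higher with no filter on low counts and with DESeq2's Wald test. Esr1, the estrogen receptor alpha gene, had 79.5 ± 6.87 normalized counts in controls and 39.8 ± 6.36 in knockouts (-0.996, adjusted p = 0.007134). Nr5a1, the gene of the steroidogenic factor SF-1, went from 2610.0 ± 184 to 1961 ± 62.1 (-0.41, adjusted p = 0.003741). Of the 4 tested Leydig markers above, 3 were also lower, and Hsd17b3 was not called (-0.37, adjusted p = 0.622). A link between these markers and Nr5a1 was not tested. The coactivator genes Ncoa2 (-0.39, adjusted p = 0.0241), Ncoa1 (-0.32, adjusted p = 0.0244) and Ncoa3 (-0.30, adjusted p = 0.0178) fell, while Ncoa6 of the MLL3/4 complex did not pass the test. Each of the 3 calls was lost without Pa1F/F replicate 1 or 3 or Amh-pa1-/- replicate 1 or 2.

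The last list held 5 factors that the study names in connection with PA1, Jun from its own samples and the others from earlier work. Of the 5, 3 were called (60.0%, 1 lower and 2 higher, median 0.30), beside 35.3% of all tested genes. For Jun, a subunit of AP-1, the list is no independent evidence. Jun had 2040.0 ± 120.3 normalized counts in controls and 2504 ± 876 in knockouts (0.30, adjusted p = 0.337), with Amh-pa1-/- replicate 3 at 3515 and the other two among the controls. Cebpd had 362 ± 57.1 and 219 ± 92.9 (-0.72, adjusted p = 0.0919), also overlapping through that library. The list had 2 lower genes without Amh-pa1-/- replicate 3 and with DESeq2's Wald test. Cebpb, a bZIP transcription factor gene, fell from 55.4 ± 2.79 to 20.2 ± 1.17 normalized counts (-1.45, adjusted p = 0.001724). Bmp2, a TGF-β family ligand gene, rose from 17.4 ± 7.75 to 181 ± 103 (3.38, adjusted p = 0.006180), with Amh-pa1-/- replicate 3 at 62.1 and the other two at 246 and 235. Creb1 rose from 886 ± 33.2 to 1169 ± 87.6 (0.40, adjusted p = 0.006737). With the offset on transcript length and GC the Creb1 difference was 0.27 and was not called (adjusted p = 0.0519).

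**Figure D5:**
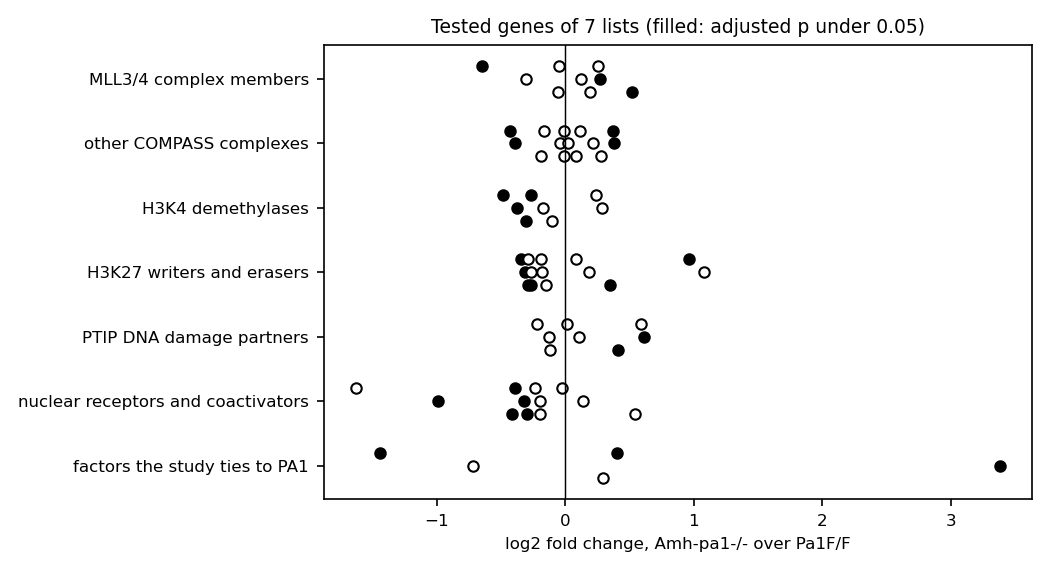
Log2 fold change in Amh-pa1-/- over Pa1F/F cells (x axis) of each tested gene in the MLL3/4 complex and 6 other lists (rows), filled for an adjusted p under 0.05. The 9 complex genes lie between -0.65 and 0.52, and Bmp2 at 3.38 and Cebpb at -1.45 are the widest of the filled points.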

How the data were processed

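Total RNA of purified Sertoli cells was sequenced on an Illumina HiSeq instrument. Per the submitters' processing notes and the methods, the authors aligned reads to GRCm38 with HISAT2 2.1.0 and counted them per gene with HTSeq 0.6.0, and the raw counts were deposited without normalization. The strand setting is not given in the sources used here, so reads of overlapping genes on opposite strands cannot be told apart. The deposited table also holds the authors' own comparison (mean, ratio, log2 ratio, p-value, adjusted p-value and call per gene), which was not used.

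Genes were filtered with filterByExpr by group (minimum count 10, minimum total 15), scaled with TMM (factors 0.990 to 1.03) and fitted in edgeR 4.0.16 (R 4.3.3) by quasi-likelihood, with genotype as the only term and an F-test. The study names DEGseq, which was not run. Benjamini-Hochberg adjustment ran over 14919 genes. Standard errors and 95% confidence intervals are those of the log2 fold change of this fit. The ratio of Kmt2c to Kmt2d was compared with an exact permutation test in Python 3.11.15 (scipy 1.17.1). Transcript lengths and GC came from GENCODE vM39, for 99.1% of tested genes, with no coordinates taken from it. Coordinates are those of the deposited table (GRCm38), and promoters are RefSeq's on GRCm38.p6, where Ash2l had no entry. Those intervals include the spread between libraries. Reads without molecular identifiers may be copies of one molecule, so the floor of 3 counts and the counting error given for Dpy30 cover counting error only. Because TMM takes most genes as unchanged, a change common to all transcripts cannot be seen.

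The members and lists were chosen with earlier results of these data known. The text names every member, the called genes of each other list (at most the 6 with the largest absolute log2 fold change) and, for Kmt2c, Kmt2d and Paxip1, the 3 genes of most similar pattern. Marker genes are named as checks of the label.

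Alternatives were DESeq2 1.42.0 size factors and Wald test, limma-voom (limma 3.58.1), library size only, no filter or at least 10 counts in every library, a block on replicate number, an offset on transcript length and GC (mgcv 1.9.3) with and without that block, close pairs of replicates summed, and each replicate left out. Counts were also simulated for 14658 genes in 3 against 3 libraries. There, 22% of 100 genes changed by 0.5 on the log2 scale and 81% of 100 changed by 1 were recovered, and 4.63% of calls were false. The simulated libraries were independent, with no close pairs, and only these genes changed, where the data gave 5266 calls. These rates therefore do not carry over to the data.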

Additional observations from a re-analysis of the deposited data

How the results depend on the processing

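Of 144 values of the members under alternatives, 127 kept direction and side of the threshold, 13 were no longer called, 2 became called and 2 changed sign: Kdm6a (-0.00178 under the replicate block with the offset on transcript length and GC) and Ncoa6 (-0.0985 to 0.0225 with 1 library left out, above 0 without Amh-pa1-/- replicate 3), neither of them called. Of 384 values of the 24 called genes of the other lists, 313 kept both and 71 were no longer called. With the close pairs of replicates summed, which leaves fewer libraries, 1382 genes passed an adjusted p of 0.05 (674 lower, 708 higher), 883 passed it with a log2 fold change of 1, 0 members were called (0 lower, 0 higher), and the other lists had 1 lower and 2 higher. Members higher fell from 2 to 1 with no filter, with DESeq2's Wald test, with the replicate block, and with the offset on transcript length and GC with or without the block. Members lower rose to 2 and the other lists' higher genes fell to 4 under the block with the offset, and their lower genes fell to 10 under the block alone. The cause was not tested.

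Leaving out 1 replicate at a time gave 3450 to 6617 genes (1689 to 3257 lower, 1761 to 3360 higher), 1 to 2 members lower, 1 to 2 members higher, and 9 to 20 genes of the other lists lower. The lowest totals came without Pa1F/F replicate 1. The difference in log2 ratio of Kmt2c to Kmt2d lay between -0.46 and -0.19 under the alternatives run, none of which leaves enough libraries for a permutation p under 0.05.

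Replicate numbers are shared between the genotypes, but deviations of same-numbered libraries correlated at 0.104, -0.159 and -0.175, so the numbers do not pair the samples. Over all crosses, Pa1F/F 2 with Amh-pa1-/- 3 gave the highest value, 0.211. Pa1F/F 1 and 3 with Amh-pa1-/- 1 and 2 gave 0.104 to 0.146, and the remaining crosses gave -0.175 to -0.136. The split into close pairs and odd libraries was thus matched, weakly, across genotypes. Its cause was not tested, and no block on it was run. The replicate block gave 3802 genes (1558 with the fold), 2 members called and 10 lower and 7 higher genes of the other lists, where Crebbp, Kdm5a, Kdm5d, Ncoa2, Ncoa3, Rnf168 and Uty were no longer called (adjusted p of 0.0505 to 0.0938). With the block and the offset on transcript length and GC together, Setd1a, Setd1b, Psip1, Suz12, Rnf168, Ncoa3 and Creb1 were no longer called (adjusted p of 0.0525 to 0.0973), and Kmt2d was (-0.30, adjusted p = 0.0313).

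Per-length levels were recomputed with the coding length of the GENCODE transcript, an alternative chosen after seeing the data, because the planned RefSeq coding length was not run. Depth limits Dpy30 most, at 300 counts.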
